A study of Sus scrofa with 6 samples.

Results

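Cadherins are calcium-dependent cell adhesion proteins, and 10 entries of this family were followed in pig ear cartilage cells: CDH13 (T-cadherin), a second gene model of CDH13 (ENSSSCG00000026558), CDH1, CDH2, CDH3, CDH4, CDH6, CDH10, CDH11 and CDH15. Models were found by the symbol of their identifier, or else by the protein name in the deposited annotation, and 9 of the 10 had a model among 19670 in all. CDH10 had no match by this rule and was not analysed here. CDH13 was chosen by its adjusted p in the comparison of GW0742 with DMSO in these same libraries, and the rest of the family was added around it. The members' values in that comparison are therefore given as a description, and nothing is supported with them.

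The cells were primary cells freed by enzymes from the external ear cartilage of 1 pig aged 4 months, a hybrid of Duroc × (Landrace × Large White) carrying wild-type PPARD. One group received GW0742, which activates the nuclear receptor PPARD (PPAR delta), for 24 h, and the other DMSO, the solvent, for as long. Each group had 3 libraries of poly(A)-selected RNA, read on an Ion Proton instrument. All cells came from the same pig and the labels name no separate cultures, so each p-value sets a difference against a spread between libraries that may be technical.

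The libraries held between 13133980 and 16913745 estimated reads, and 14146 models (71.9%) were deep enough to test. In edgeR's quasi-likelihood test, 26 models were higher with GW0742 and 11 lower at an adjusted p under 0.05. The first principal component parted the groups (36.3% of the variance), and DMSO replicate 2 stood apart from the other DMSO libraries on the second (23.2%). Of 13 chondrocyte markers, none was at 0 in every library, though MATN1 had 10 reads and CNMD 3 reads over all 6. COL2A1, the main collagen of cartilage, averaged 108 RPKM with GW0742 and 114 RPKM with DMSO, and COL1A2, a collagen of fibroblasts, 6416 and 7108 RPKM. None of the 8 tested fibroblast, 2 melanocyte and 4 immune markers passed in edgeR, where 4 fibroblast markers (2 higher, 2 lower), 0 melanocyte and 1 immune marker (higher) had an unadjusted p under 0.05, against 16.8% of all tested models. DESeq2 called 1 fibroblast marker higher and 1 lower and none of the other two lists, against 3.12% of all tested models. ACAN, the main cartilage proteoglycan, fell with GW0742 (log2 -0.50 ± 0.06, SE, edgeR adjusted p = 0.0185). It was the 1 called of 11 tested chondrocyte markers, where 0.0778% of all tested models were called lower. Of the 11, 3 had an unadjusted p under 0.05, all lower, against 16.8% of all tested models in either direction. DESeq2 called 2 lower, ACAN (adjusted p = 3.7e-13) and COL11A1 (adjusted p = 0.00683), against 1.65% of all tested models. The edgeR call of ACAN was lost without GW0742 replicate 1 (adjusted p = 0.105), DMSO replicate 1 (0.101) or DMSO replicate 3 (0.0815). ACAN was not called in either limma setting (0.115 and 0.149). The summed level of the chondrocyte markers was 1965 to 2090 CPM with GW0742 and 2398 to 2544 CPM with DMSO. In bulk RNA, fewer cells of a type and less RNA per cell cannot be told apart.

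Classical cadherins bind the same cadherin on the neighbouring cell through their outer domains and hold catenins, and through them actin, on their inner tail. N-cadherin (CDH2) is the cadherin of condensing mesenchyme before cartilage forms, and OB-cadherin (CDH11) is that of osteoblasts, synovial cells and other mesenchyme. T-cadherin (CDH13) is the odd member: it has no inner tail, sits in the membrane by a glycolipid anchor, and binds adiponectin and low-density lipoprotein. It is best known from endothelium, smooth muscle and heart.

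Of the 9 models, 4 carried nearly all cadherin RNA of the list, and the other 5 stood near the detection limit. By the deposited RPKM (reads per kb of gene model, scaled to library size), CDH11 was highest, with 314, 357 and 267 RPKM in the GW0742 libraries and 217, 255 and 222 RPKM in the DMSO libraries. CDH2 followed with 48.9, 60.5 and 53.5 RPKM with GW0742 and 55.4, 69.7 and 61.3 RPKM with DMSO. The second CDH13 model had 19.4, 21.7 and 18.4 RPKM with GW0742 and 10.9, 13.4 and 12.7 RPKM with DMSO. CDH13 itself had 13.9, 14.5 and 13.3 RPKM with GW0742 and 8.44, 8.97 and 9.52 RPKM with DMSO. The ranges of CDH11 and CDH2 over the 6 libraries did not overlap with each other or with those of the CDH13 models, while the ranges of both CDH13 models overlapped (10.9 to 21.7 RPKM and 8.44 to 14.5 RPKM). The gap below them was wide, since none of the other 5 exceeded 0.232 RPKM, the value of CDH1 in DMSO replicate 2.

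**Figure D1:**
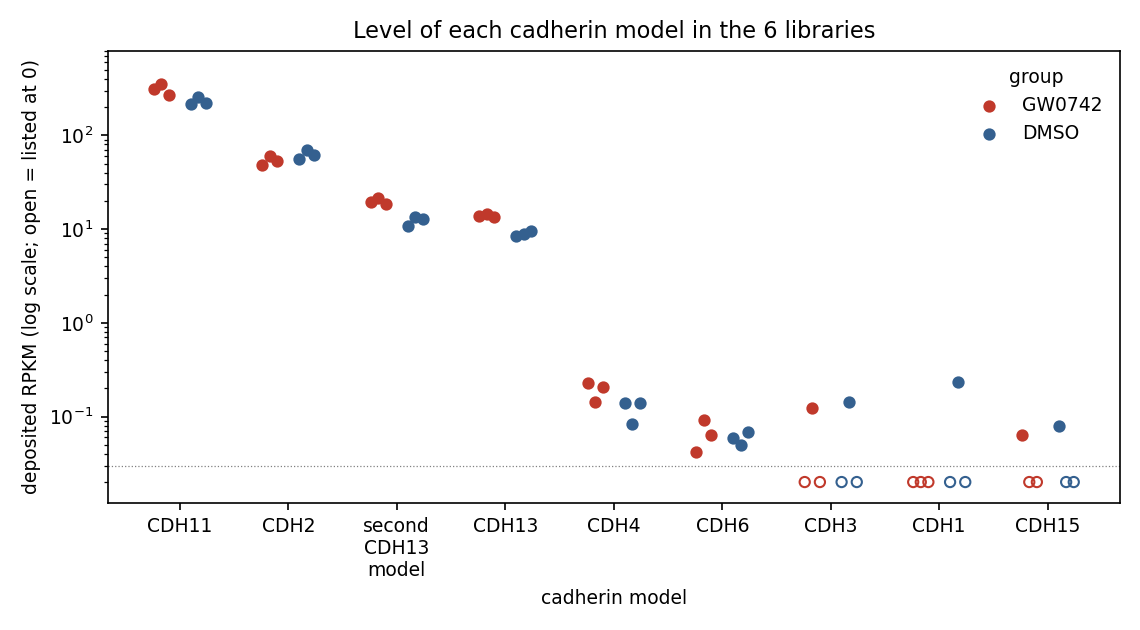
Deposited RPKM of the 9 cadherin models on a log scale, 1 point per library, with GW0742 in red left of DMSO in blue and open points for values listed at 0. CDH11, CDH2 and both CDH13 models lie between 8.44 and 357 RPKM, and the other 5 models lie at or below 0.232 RPKM.

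This order changed when levels were taken per kb of the listed model length. How the deposited RPKM counted length is not stated in the sources used here. CDH11 has 7 transcripts and CDH2 has 6, whereas the other members have 1 each. Taken instead as CPM (counts per library size, scaled by the trimmed mean of M values, TMM) per kb of the listed model length, CDH11 had 95.2 ± 3.74 CPM per kb with GW0742 and 96.0 ± 10.5 with DMSO (SD, n = 3 each). On that scale CDH2 had 11.7 ± 0.78 with GW0742 and 13.8 ± 0.37 with DMSO, CDH13 had 14.9 ± 0.40 and 9.78 ± 0.67, and the second CDH13 model 20.7 ± 1.39 and 13.1 ± 1.55, again with GW0742 before DMSO. CDH11 was highest on both scales, while by CPM per kb CDH2 lay below both CDH13 models with GW0742 and near the second of them with DMSO. The deposited RPKM was 2.35 to 3.80 times the CPM per kb for CDH11 and 4.08 to 4.89 times for CDH2, against 0.905 to 0.980 times for both CDH13 models. CDH11 made up 75.8% to 79.2% of the summed RPKM of the 9 models with GW0742 and 72.6% to 74.3% with DMSO, but 65.2% to 68.7% of their summed CPM per kb with GW0742 and 70.6% to 73.4% with DMSO, so the order of the groups turned round with the scale. The CDH13 model made up 3.18% to 3.78% of the RPKM with GW0742 and 2.58% to 3.12% with DMSO, and 9.95% to 10.8% of the CPM per kb with GW0742 and 6.73% to 8.08% with DMSO, the GW0742 libraries being higher on both scales.

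T-cadherin RNA was higher with GW0742 in each of its libraries. CDH13 (ENSSSCG00000002684, 2389 bases) had 469, 581 and 526 reads in the GW0742 libraries and 365, 315 and 413 reads in the DMSO libraries. In CPM these were 35.9, 36.2 and 34.4 CPM with GW0742, against 21.7, 23.7 and 24.8 CPM with DMSO. The groups did not overlap, as was so for 11.4% of all tested models in this direction, and the libraries of each group lay close together. The means were 35.5 ± 0.99 CPM with GW0742 and 23.4 ± 1.57 CPM with DMSO (SD, n = 3 each), a 1.52-fold difference (log2 0.60 ± 0.08, SE, edgeR adjusted p = 0.0356), where 0.184% of all tested models were called higher. By its p-value CDH13 ranked 22nd of 14146 tested models.

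The second model, ENSSSCG00000026558, is a short one of 526 bases that carries the protein name of pig cadherin-13 in the deposited annotation. It had 141, 187 and 156 reads with GW0742 and 101, 101 and 119 reads with DMSO, which were 10.8, 11.7 and 10.2 CPM against 5.99, 7.58 and 7.14 CPM. The groups did not overlap here either. The fold was 1.58 (log2 0.66 ± 0.14, SE), and the model did not pass in edgeR (adjusted p = 0.092). CDH13 was thus the member just inside the threshold and ENSSSCG00000026558 the one just outside. DESeq2 put both inside (adjusted p = 9.1e-05 for CDH13 and 0.0382 for ENSSSCG00000026558), and called 1.46% of all tested models higher.

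Both models kept nearly the same proportion in every library. The reads of the second model were 30.0%, 32.2% and 29.7% of those of the first with GW0742 and 27.7%, 32.0% and 28.7% with DMSO, so the groups overlapped in this measure. Since estimated counts may divide reads between models of the same protein, the sum of both is also given. It was 46.7, 47.9 and 44.6 CPM with GW0742 and 27.7, 31.2 and 31.9 CPM with DMSO, a log2 difference of 0.62 ± 0.08 (SE, edgeR adjusted p = 0.0317). The summed groups did not overlap.

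T-cadherin is abundant in endothelium, so the endothelial markers of these cultures are set beside it. Of 8 tested endothelial markers none passed in edgeR, 6 had an unadjusted p under 0.05, all higher, against 16.8% of all tested models in either direction, and DESeq2 called 2 higher, against 1.46%. Their median log2 value was 1.13, against -0.0015 over all tested models. PECAM1, a junction protein of endothelium, had 28.3, 35.0 and 15.6 CPM with GW0742 and 11.9, 12.2 and 11.1 CPM with DMSO (log2 1.17 ± 0.26, edgeR adjusted p = 0.0977; DESeq2 adjusted p = 0.000214), and KDR, a receptor of vascular endothelial growth factor, had a log2 value of 1.56 ± 0.36 (edgeR adjusted p = 0.107; DESeq2 adjusted p = 0.0156). Without GW0742 replicate 3, PECAM1 passed in edgeR (log2 1.43, adjusted p = 0.00983). In the other 5 edgeR fits with 1 library left out it did not pass (adjusted p = 0.15 to 0.319). The lowest log2 value of these, 0.90, came without GW0742 replicate 2. PECAM1 was not called in either limma setting (adjusted p = 0.377 and 0.408). CLDN5, a tight junction protein, stood at 0.43 ± 0.15 (adjusted p = 0.209) and ERG, an endothelial transcription factor, at -0.055 ± 0.079 (adjusted p = 0.767). The 9 markers with a model summed to 145 to 188 CPM with GW0742 and 115 to 144 CPM with DMSO, and none of the 9 was at 0 in every library. CDH5, the endothelial cadherin, had no symbol match and was not analysed here.

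CDH13 and PECAM1 differed in their spread within the GW0742 group. PECAM1 ranged from 15.6 to 35.0 CPM there, while CDH13 ranged from 34.4 to 36.2 CPM. CDH13 had 1.27, 1.04 and 2.20 times the CPM of PECAM1 in the GW0742 libraries and 1.82, 1.94 and 2.23 times in the DMSO libraries. GW0742 replicate 3 was the lowest of its group in both genes. Smooth muscle, another tissue rich in T-cadherin, had 8 tested markers, of which 0 passed in edgeR. An unadjusted p under 0.05 was reached by 3, all lower, against 16.8% of all tested models in either direction. DESeq2 called 2 lower, against 1.65% of all tested models. These 2 were ACTA2 (log2 -0.29 ± 0.07, edgeR adjusted p = 0.12; DESeq2 adjusted p = 0.00562) and CNN1 (log2 -0.28 ± 0.06, edgeR adjusted p = 0.0884; DESeq2 adjusted p = 0.00114), both contractile proteins. The summed level of the list was 6990 to 8685 CPM with GW0742 and 8962 to 9337 CPM with DMSO. The part of either marker list in the CDH13 result was not tested, and heart had no marker list.

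N-cadherin pointed the other way without passing the threshold. CDH2 (ENSSSCG00000003722) had 386, 530 and 451 reads with GW0742 and 602, 499 and 598 reads with DMSO. These were 29.6, 33.0 and 29.5 CPM with GW0742, against 35.7, 37.5 and 35.9 CPM with DMSO. The groups did not overlap in CPM, although they did in the deposited RPKM. The log2 difference was -0.24 ± 0.08 (SE, edgeR adjusted p = 0.183; DESeq2 adjusted p = 0.301).

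**Figure D2:**
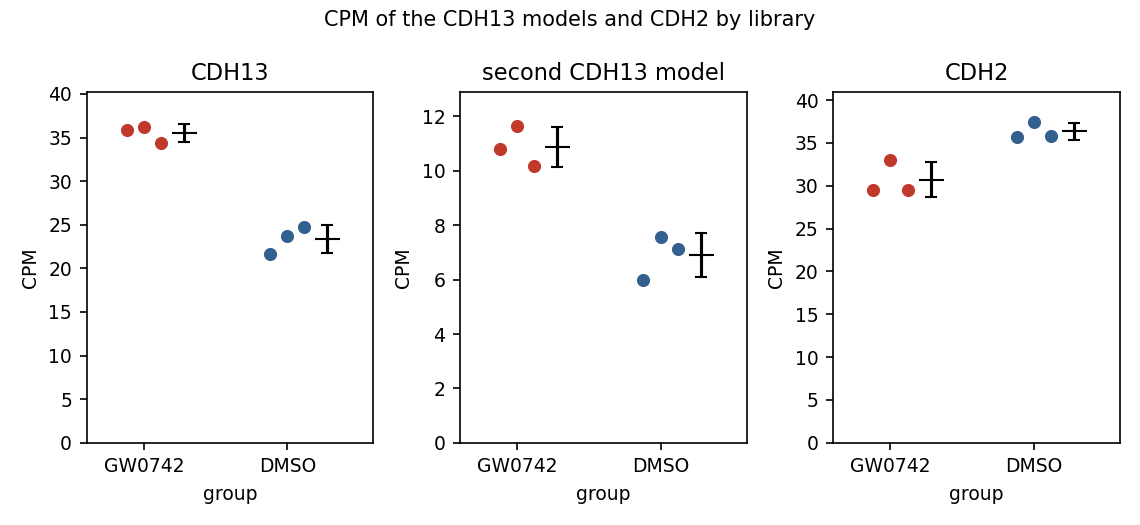
CPM of CDH13, the second CDH13 model and CDH2 in each library, with GW0742 left of DMSO and bars for the mean ± SD of 3 libraries. Both CDH13 models lie higher with GW0742 (35.5 against 23.4 CPM and 10.9 against 6.91 CPM) and CDH2 lies lower (30.7 against 36.4 CPM).

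Set against each other within a library, CDH2 and CDH13 stood in opposite order of read number in the groups. CDH2 had 0.824, 0.913 and 0.856 times the reads of CDH13 in the GW0742 libraries and 1.65, 1.58 and 1.45 times in the DMSO libraries. Every GW0742 library lay below 1 and every DMSO library above it. By the deposited RPKM the same ratio was 3.53, 4.18 and 4.02 with GW0742 and 6.57, 7.77 and 6.44 with DMSO, so CDH2 stayed above CDH13 on that scale while the groups remained apart. The ratio joins values of the comparison that chose CDH13 and was looked at after they were seen, so it is given with no test.

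OB-cadherin gave different pictures by reads and by deposited RPKM. CDH11 (ENSSSCG00000002795, listed length 5953 bases) had 7171, 8971 and 9057 reads with GW0742 and 8941, 8571 and 9001 reads with DMSO. In CPM these were 549, 559 and 592 with GW0742, against 531, 644 and 540 with DMSO, and the groups overlapped, with DMSO replicate 2 highest. The log2 difference was -0.011 ± 0.082 (SE, edgeR adjusted p = 0.962). The deposited RPKM given above did not overlap between the groups, and averaged 313 ± 45.2 with GW0742 and 231 ± 20.3 with DMSO (SD, n = 3 each). In limma on log2(RPKM + 1) the difference was 0.43 ± 0.13 (SE, adjusted p = 0.208).

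The divergence lay in how much RPKM each CDH11 read stood for. The ratio of deposited RPKM to CPM per kb was 3.40, 3.80 and 2.69 with GW0742 and 2.44, 2.35 and 2.45 with DMSO. The DMSO libraries were close to each other, and the GW0742 libraries were all above them and further apart, with replicate 3 nearest to DMSO. For CDH2 the ratio was 4.34, 4.81 and 4.77 with GW0742 and 4.08, 4.89 and 4.49 with DMSO, and the groups overlapped. Among 1776 tested models with several transcripts, 10.4% had such a ratio higher in every GW0742 library, and in 41 (2.31%) the log2 shift was, in either direction, at least as large as the 0.45 of CDH11. Among 12370 tested models with 1 transcript, 0.178% had the ratio higher in every GW0742 library and 0 had a shift of that size. The separate transcripts of CDH11 were not analysed here, and whether their proportions differed was not tested.

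**Figure D3:**
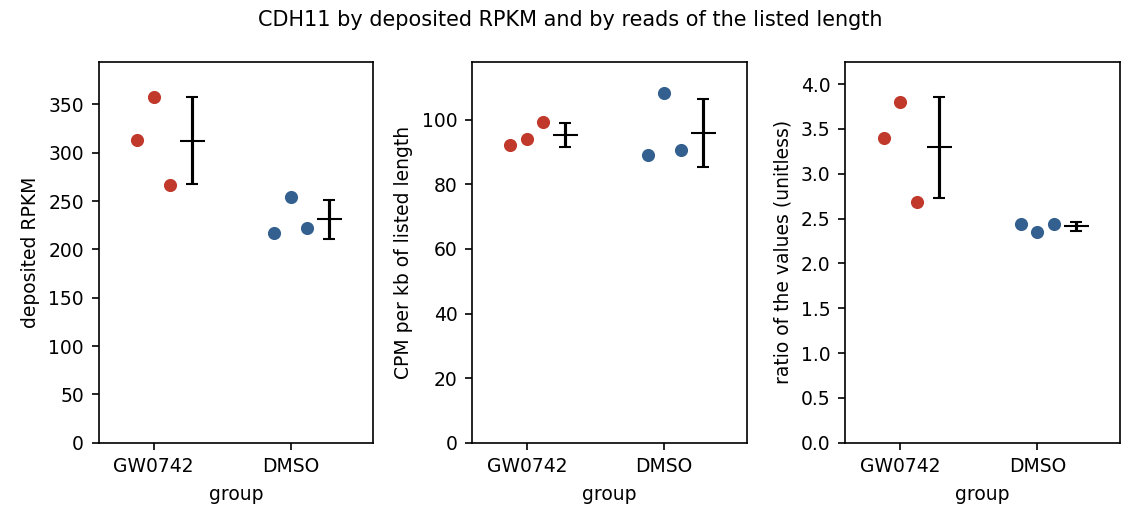
CDH11 in each library as deposited RPKM, as CPM per kb of the listed length, and as the ratio of both, with GW0742 left of DMSO and bars for the mean ± SD of 3 libraries. The RPKM values are apart (313 against 231) while the CPM per kb overlap (95.2 against 96.0), and the ratio averages 3.30 with GW0742 and 2.41 with DMSO.

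The remaining 5 members were too low to test. CDH4, the R-cadherin first described in retina, had 7, 6 and 8 reads with GW0742 and 6, 3 and 6 reads with DMSO. CDH6, the K-cadherin of kidney, which was matched by its protein name, had 2, 4 and 3 reads with GW0742 and 3, 2 and 3 reads with DMSO. In reads the groups touched for CDH4 and overlapped for CDH6. Scaled to library size CDH4 did not overlap, with 0.536, 0.374 and 0.523 CPM with GW0742 and 0.356, 0.225 and 0.360 CPM with DMSO, and its deposited RPKM did not either, while its CPM per kb from unrounded reads overlapped. These values lie near the floor of 3 reads, which corresponds to 0.177 to 0.228 CPM. CDH3, the P-cadherin of basal epidermis, had 2 reads in replicate 2 of each group and was listed at 0 in the other 4 libraries. CDH15, the M-cadherin of muscle precursors, had 2 reads in GW0742 replicate 1 and 3 reads in DMSO replicate 1. CDH1, the E-cadherin of epithelia, was listed at 0 in all 3 GW0742 libraries and in 2 of the DMSO libraries, and had 4 reads in DMSO replicate 2. None of these 5 was deep enough to test for a difference, and floors cover counting error only.

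Further models with the protein names of CDH3, CDH4 and CDH15 were as scarce. ENSSSCG00000028573, named as a part of cadherin-4, had 4 reads over the GW0742 libraries and 2 over the DMSO libraries. ENSSSCG00000024924, named as cadherin 3, had 1 and 2 reads, and ENSSSCG00000024790, named as cadherin-15, had 15 and 13 reads, with GW0742 before DMSO. Markers of epithelia and of muscle precursors, set beside CDH1, CDH3 and CDH15, were low too. The 9 epithelial markers with a model summed to 10.8 to 16.1 CPM with GW0742 and 13.7 to 14.9 CPM with DMSO, and the 5 skeletal muscle precursor markers to 3.27 to 3.68 CPM and 3.44 to 4.06 CPM. None of their 4 and 2 tested members passed in edgeR or DESeq2, and none had an unadjusted p under 0.05.

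In all, 4 of the 9 members passed the filter on low counts, and 1 of these, CDH13, was called higher and none lower. Of all tested models 0.184% were called higher, 0.0778% lower and 0.262% in either direction. DESeq2 called both CDH13 models higher and none lower, where it called 1.46% of all tested models higher, 1.65% lower and 3.12% in either direction. CPM did not overlap between the groups in 3 of the 4, the CDH13 models being higher and CDH2 lower, where 11.4% of all tested models were apart and higher, 12.1% apart and lower and 23.4% either. The deposited RPKM did not overlap in 3 of the 4, both CDH13 models and CDH11, all higher, where 13.7% of all tested models were apart and higher and 23.3% in either direction. An unadjusted p under 0.05 in edgeR was reached by both CDH13 models and CDH2, against 16.8% of all tested models. As the members were picked with this contrast in view, nothing is read from these shares.

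CDH13 kept its direction, with log2 differences of 0.55 to 0.65, when each library was left out in turn. Its call was kept without GW0742 replicate 3 (edgeR adjusted p = 0.0476) and lost without any other single library, with adjusted p-values of 0.0613 without GW0742 replicate 2, 0.067 without DMSO replicate 2, 0.115 without DMSO replicate 3, 0.148 without GW0742 replicate 1 and 0.18 without DMSO replicate 1.

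**Figure D4:**
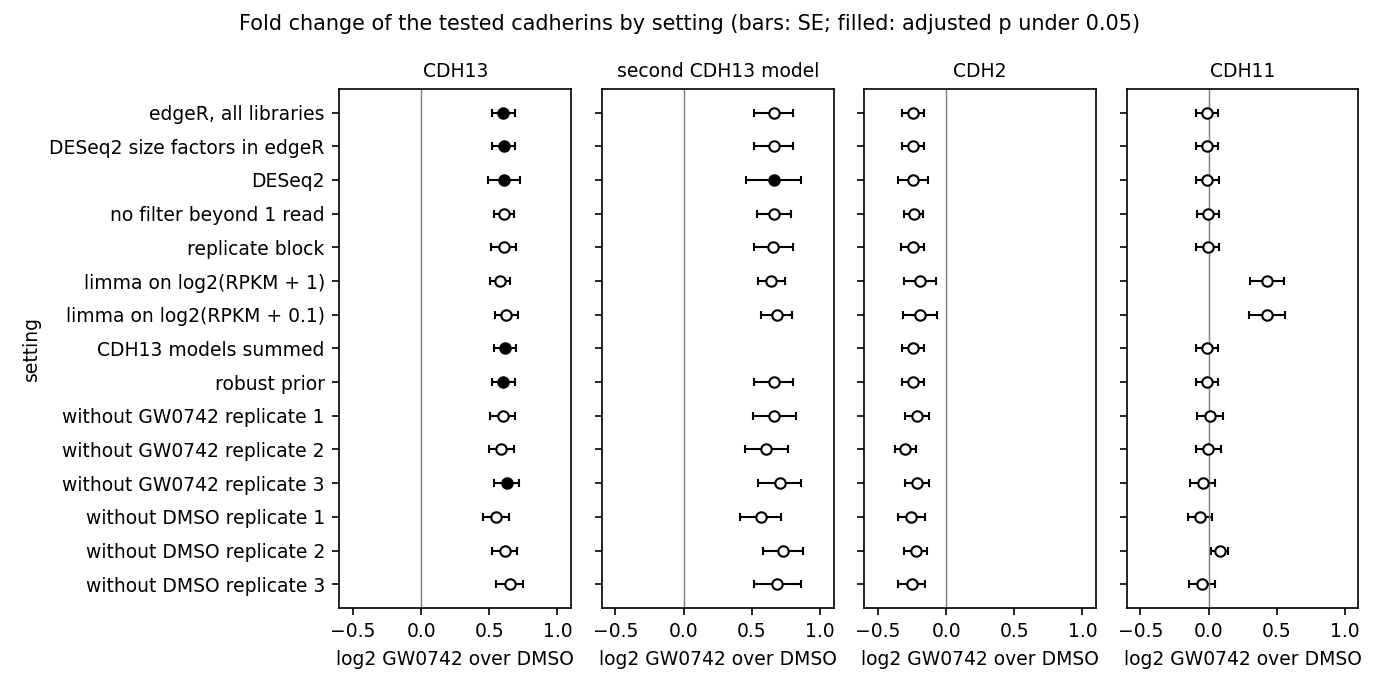
Log2 difference of GW0742 over DMSO, with its SE, for the 4 tested cadherin models under each setting, filled where the adjusted p was under 0.05. CDH13 stays between 0.55 and 0.65, the second model between 0.56 and 0.73, CDH2 between -0.30 and -0.19, and CDH11 lies at -0.063 to 0.082 by reads but at 0.43 in both RPKM settings.

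Catenins link the tails of classical cadherins to actin, and none of the 12 tested catenins and junction adaptors passed in edgeR, in either direction. At an unadjusted p under 0.05 there were 4, 2 higher and 2 lower, against 16.8% of all tested models in either direction. DESeq2 called 1 lower, against 1.65% of all tested models, and the median log2 value was -0.016. The core of the adhesion complex was abundant. CTNNB1 (beta-catenin) had 388, 370 and 342 CPM with GW0742 and 320, 324 and 319 CPM with DMSO (log2 0.19 ± 0.06, adjusted p = 0.182). CTNNA1 (alpha-catenin), which binds actin, had 375, 314 and 382 CPM with GW0742 and 413, 401 and 422 CPM with DMSO (log2 -0.21 ± 0.08, adjusted p = 0.25). Both were apart between the groups in CPM without passing the threshold, CTNNB1 higher and CTNNA1 lower. In the whole list, 4 of the 12 tested genes were apart and higher in CPM and 2 apart and lower. Of all tested models 11.4% were apart and higher and 12.1% apart and lower.

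CTNND1 (p120-catenin), which keeps cadherins at the cell surface, had a log2 value of -0.050 ± 0.055 (adjusted p = 0.689), and JUP (plakoglobin) one of -0.045 ± 0.064 (adjusted p = 0.765). ARVCF, a relative of CTNND1, had the lowest p of the list, with 74.5, 71.0 and 80.2 CPM with GW0742 and 99.7, 94.2 and 94.5 CPM with DMSO (log2 -0.35 ± 0.07, edgeR adjusted p = 0.0756), and DESeq2 called it lower (adjusted p = 0.00378). By RPKM the most abundant of the list was VCL (vinculin), at 165 with GW0742 and 160 with DMSO.

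Among 18 other cadherins and calsyntenins with a model, 8 could be tested and none passed in edgeR or DESeq2. An unadjusted p under 0.05 was reached by 1, against 16.8% of all tested models, and the median log2 value was 0.12. CLSTN1 was the one at a high level, with 75.4 RPKM with GW0742 and 71.4 RPKM with DMSO, and CDH18, a type II cadherin best known from brain, had 0.989 and 1.14 RPKM. CLSTN3 had the lowest p (log2 0.83 ± 0.28, adjusted p = 0.191). None of the 3 tested desmosomal genes passed in edgeR or DESeq2, and 0 had an unadjusted p under 0.05, with DSG2, a desmosomal cadherin, at log2 -0.23 ± 0.14 (adjusted p = 0.448).

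None of the 9 tested protocadherin, FAT, DCHS and CELSR genes passed in edgeR or DESeq2. An unadjusted p under 0.05 was reached by 2, both higher, against 16.8% of all tested models in either direction. Their median log2 value was 0.19, with 8 of 9 above 0. FAT1, a giant cadherin of the cell edge, had 59.4 RPKM with GW0742 and 54.0 RPKM with DMSO (log2 0.11 ± 0.07, adjusted p = 0.439). PCDH12, a protocadherin of endothelium, had 3.29, 3.49 and 1.05 CPM with GW0742 and 0.594, 0.676 and 1.20 CPM with DMSO (log2 1.64 ± 0.48, adjusted p = 0.158), so the groups overlapped. PCDH1 stood at log2 0.43 ± 0.17 (adjusted p = 0.263). Like PECAM1, PCDH12 was lowest in replicate 3 among the GW0742 libraries, as were CDH13 and NGFR, a neural marker given below.

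None of 11 tested nectins and other junction proteins passed in edgeR. An unadjusted p under 0.05 was reached by 2, both lower, against 16.8% of all tested models in either direction. DESeq2 called 1 lower, against 1.65% of all tested models. The median log2 value was -0.064. NECTIN3, a partner of cadherins in young junctions, had 95.1, 77.4 and 108 CPM with GW0742 and 127, 126 and 124 CPM with DMSO (log2 -0.43 ± 0.11, edgeR adjusted p = 0.124; DESeq2 adjusted p = 0.00966, lower). ALCAM, an adhesion molecule of the immunoglobulin family, stood at log2 -0.21 ± 0.08 (adjusted p = 0.242). The gap junction protein GJA1 was the most abundant, with 174 RPKM with GW0742 and 178 RPKM with DMSO.

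For the ligands of T-cadherin, ADIPOQ (adiponectin) and APOB (the protein of low-density lipoprotein) had no symbol match and were not analysed here. Of the 7 tested genes of this group none passed in edgeR or DESeq2, and the median log2 value was 0.022. Among them 1 had an unadjusted p under 0.05, against 16.8% of all tested models. The adiponectin receptors ADIPOR1 and ADIPOR2 had 24.2 and 32.7 CPM with GW0742 and 23.8 and 33.0 CPM with DMSO. ILK, a kinase at integrin sites, had the lowest p (log2 -0.21 ± 0.07, adjusted p = 0.213).

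Regulators and enzymes that act on cadherins gave no call in edgeR or DESeq2. Of 6 tested transcription factors tied to the switch between E- and N-cadherin, 1 had an unadjusted p under 0.05 and the median log2 value was 0.052. TCF4 had a log2 value of 0.25 ± 0.11 (adjusted p = 0.295) and ZEB1, a repressor of CDH1, one of 0.10 ± 0.06 (adjusted p = 0.447). SNAI1, SNAI2 and TWIST1 had no symbol match and were not analysed here. Of 11 tested genes of cadherin shedding and processing, 4 had an unadjusted p under 0.05, 2 in each direction, and the median log2 value was 0.0024. For both lists, the share of all tested models under that p was 16.8%. ADAM10, which cuts CDH1 and CDH2 at the cell surface, had 36.5, 36.6 and 38.3 CPM with GW0742 and 42.9, 44.2 and 42.2 CPM with DMSO (log2 -0.21 ± 0.07, adjusted p = 0.171). PCSK5, a proprotein convertase, stood at log2 0.44 ± 0.17 (adjusted p = 0.235).

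**Figure D5:**
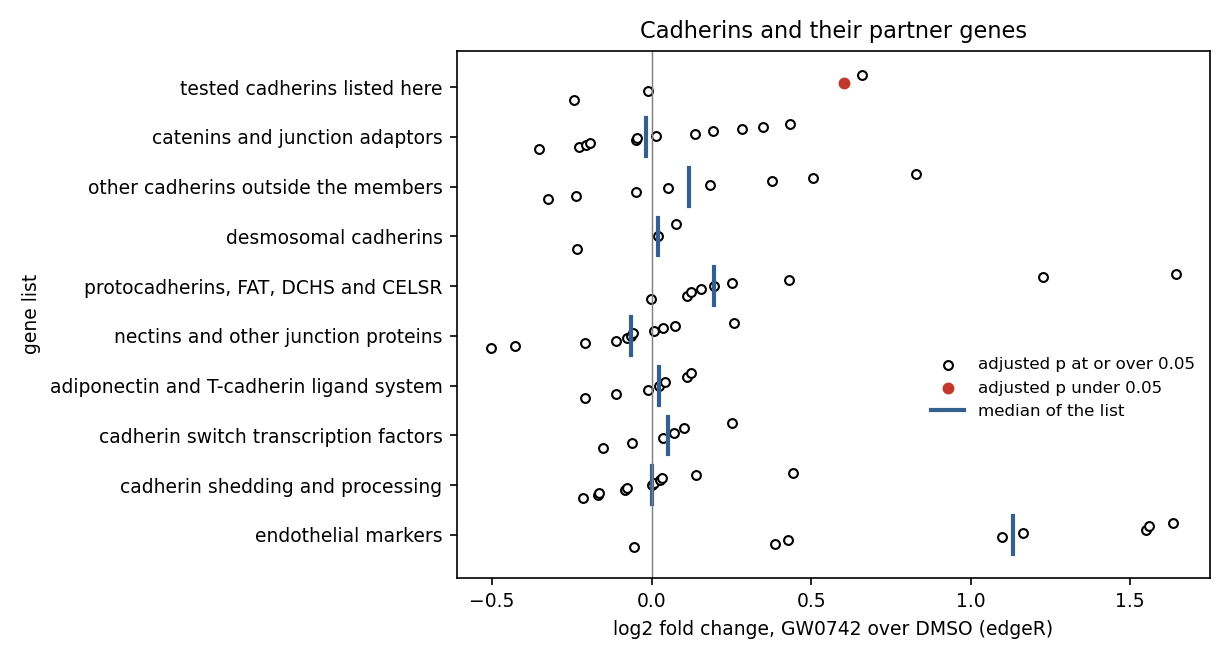
Log2 difference of GW0742 over DMSO in edgeR for each tested gene of the lists described here, with the 4 tested cadherin models on top, blue lines at the median of each list, and red for an adjusted p under 0.05. CDH13 is the only red point shown, and the endothelial markers have the highest median, 1.13.

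The genes most like CDH13 across the 6 libraries were those that parted the groups as cleanly. Among 7307 models with a symbol and at least 5 CPM, the highest Pearson correlations of log2 CPM with CDH13 were those of EXOSC7, a subunit of the RNA exosome (0.998), CPT1A, which commits fatty acids to mitochondria (0.992), LSG1, a GTPase of ribosome export (0.991), VCAM1, a leukocyte adhesion molecule (0.990), and PRDX6, a peroxide-reducing enzyme (0.989). Their sizes of difference were unlike, from log2 0.24 ± 0.05 for PRDX6 to 1.95 ± 0.14 for CPT1A. In all, 193 models (2.64%) reached a correlation of 0.9, and all share the same libraries and the same contrast.

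CDH11 followed a different pattern, in which DMSO replicate 2 was highest. Its nearest genes were RMND1, a mitochondrial protein (0.985), SP110, a nuclear body protein (0.974), DGKH, a diacylglycerol kinase (0.970), MDM2, the ubiquitin ligase of p53 (0.968), and SF3A1, a splicing factor (0.967). Their log2 differences between the groups ran from -0.17 ± 0.37 for DGKH to 0.03 ± 0.09 for SF3A1, and none passed in edgeR. Only 70 models (0.958%) reached 0.9 with CDH11.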

How the data were processed

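RNA of 3 GW0742 and 3 DMSO libraries was measured. Each deposited library file holds the authors' estimated count, length and RPKM of every gene model with reads, per the file headers. Their deposited summary of all libraries has the same RPKM for 19670 models. The genome build was Sscrofa 10.2, per the submitters' processing notes. No aligner, counter or annotation release is given in the sources used here, and no step that marks strand is named in the labels' protocols, so overlapping genes on opposite strands are not separable. A table of gene names gave symbols to 11147 models, and 567 more were named through protein and pathway identifiers that led to 1 symbol in the RefSeq table of Sscrofa11.1. No coordinates are printed, because that table belongs to another build.

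After rounding of the estimated counts and filterByExpr (minimum count 10), edgeR 4.0.16 (R 4.3.3) fitted both groups with TMM scaling and no block, and compared them by its quasi-likelihood F-test. Adjustment was by Benjamini-Hochberg over the 14146 tested models, two-sided, with a threshold of 0.05. The SE is the log2 value divided by the root of F. CPM per kb uses unrounded estimated counts, TMM-scaled library sizes and the listed length. DESeq2 1.42.0 and limma 3.58.1 on log2(RPKM + 1) and log2(RPKM + 0.1) were among the alternatives. No libraries agreed within sampling noise (chi-square per degree of freedom of at least 4.06 between any pair).

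Members, named-gene rule, 9 partner lists and 9 marker lists were all chosen with earlier results of these data known. The rule names every member, in each list the genes past the threshold (or the 2 with the lowest p) and the 2 highest by RPKM, and the 5 genes most correlated with CDH13 and with CDH11. Values are printed for those the text turns on, and some listed genes and 1 partner list are not reported here. CTNNA1, CTNND1, ADIPOR1, ADIPOR2, MATN1 and CNMD were added after their values were seen.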

Additional observations from a re-analysis of the deposited data

How the results depend on the processing

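The number of models called higher was 26 and of models called lower 11. DESeq2 gave 207 and 234, no filter gave 13 and 3, and limma gave 13 and 2 with a pseudocount of 1 on RPKM and 7 and 4 with one of 0.1, while an adjusted p under 0.01 gave 6 and 0 (2382 models had an unadjusted p under 0.05 in edgeR). With single libraries left out, between 6 and 54 were higher and between 0 and 47 lower. CDH13 kept its direction in all 14 alternatives. Its call was lost without a filter (log2 0.61, adjusted p = 0.084) and in limma (log2 0.58 with the pseudocount of 1 and 0.62 with 0.1, adjusted p = 0.0709 and 0.108), and it ranged from 0.55 to 0.65 over left-out libraries. The second CDH13 model gained a call in DESeq2 (log2 0.66). CDH11 turned to 0.43 in both limma settings, which read the deposited RPKM, and ranged from -0.063 to 0.082 over left-out libraries. By CPM per kb in place of RPKM, the log2 ratio of CDH11 to CDH2 was 3.03 with GW0742 and 2.79 with DMSO (2.52 and 1.90 by RPKM), that of CDH2 to CDH13 turned to -0.35 with GW0742 and was 0.50 with DMSO (1.96 and 2.79), and that of CDH2 to the second CDH13 model turned to -0.82 with GW0742 and was 0.085 with DMSO (1.45 and 2.33). Partner lists held 0 genes higher and 0 lower, and DESeq2 gave 2 lower. Marker lists held 1 higher and 1 lower, against 5 and 5 in DESeq2, 0 and 0 in both limma settings, and 0 to 3 and 0 to 1 over left-out libraries. Of 434 values for 31 other named genes, 411 stayed on their side of the threshold, 14 lost a call, 9 gained one and 0 changed direction. The causes of these shifts were not tested.

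The replicate numbers were not treated as pairs, because same-numbered libraries did not deviate together (correlations of 0.0054, -0.032 and -0.10 for numbers 1, 2 and 3). With the replicate block, edgeR gave 10 models higher and 0 lower, CDH13 at log2 0.60 (adjusted p = 0.142), and 0 marker genes higher and 0 lower, with ACAN at an adjusted p of 0.0990. No GW0742 library correlated best with the DMSO library of its own number. Correlations this near 0 cannot tell whether same-numbered libraries shared a culture or a run. Depth limits CDH1, CDH3, CDH4, CDH6 and CDH15, which had 4 to 36 reads over all libraries.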

Other observations

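The nearest tested genes with a symbol match beside CDH13, in the gene order of the RefSeq table of Sscrofa11.1, did not pass in edgeR. Genes without such a match were passed over, so closer ones may exist. On the side of MBTPS1, a protease that activates sterol regulators, MBTPS1 had 198 ± 7.84 CPM with GW0742 and 214 ± 7.31 CPM with DMSO (SD, n = 3 each; log2 -0.12 ± 0.06, SE, adjusted p = 0.364) and HSDL1 20.7 ± 1.72 and 20.0 ± 1.54 CPM (log2 0.04 ± 0.10, adjusted p = 0.866). On the other side PLCG2, a phospholipase of immune receptors, had 4.37 ± 0.76 CPM with GW0742 and 3.14 ± 0.66 CPM with DMSO (log2 0.47 ± 0.23, adjusted p = 0.338), and CMIP 28.2 ± 3.88 and 24.3 ± 1.47 CPM (log2 0.22 ± 0.11, adjusted p = 0.381). These neighbours were looked at after the values of CDH13 were seen.

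NGFR, a neurotrophin receptor of the Schwann and neural markers, had 6.51, 5.67 and 3.07 CPM with GW0742 and 2.49, 1.35 and 1.80 CPM with DMSO (log2 1.41 ± 0.33, SE, edgeR adjusted p = 0.107), and DESeq2 called it higher (adjusted p = 0.0129). The groups did not overlap, as was so for 11.4% of all tested models in this direction. The summed level of these markers was 109 to 116 CPM with GW0742 and 107 to 125 CPM with DMSO.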
